A study of Danio rerio with 14 samples.

Results

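Hearts from zebrafish libraries that carry the letter F were compared with hearts from libraries that carry the letter M, 7 months after tamoxifen. All 8 RNA-seq libraries of this time point, of 14 in the series, were used. They form 4 groups of 2: F and M libraries of *il11a*OE hearts, and F and M libraries of control hearts. The *il11a*OE fish carried actb2:loxp-BFP-stop-loxp-il11a together with cmlc2:creER, so that tamoxifen removes a stop cassette and the *actb2* promoter drives *il11a* in cardiomyocytes, where the *cmlc2* promoter is active. Control fish carried the same *il11a* transgene without CreER. Both genotypes were adult, uninjured and of the outbred EK strain, and both were exposed to 5 µM tamoxifen for 24 h. The methods describe replicate pools of hearts, in a number that differs from that of the libraries at this time point. Each library is taken here as a pool. No source defines the letters, and the methods state only that fish of both sexes were used. The libraries are therefore called F and M here, and their content of vitellogenin and other sex-related transcripts is described first.

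Zebrafish have no single pair of sex chromosomes shared by all strains. In several strains a region near the end of the long arm of chromosome 4 is linked to sex, and some laboratory strains have lost that link. Whether the EK fish used here carry it was not tested. The long arm of chromosome 4 is rich in repeats and in multicopy genes, among them zinc-finger and immune receptor genes. Vitellogenins, the yolk precursors, are made mainly by the liver of females under the control of oestrogen, and are thus a usual sign of female tissue or blood in a zebrafish sample. Adult hearts also hold resident macrophages, fibroblasts, endocardium and blood, whose transcripts all enter a bulk library. In such libraries fewer cells of a type and less RNA per cell cannot be told apart.

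The genotype was visible in every library. *il11a*, the cytokine gene of the transgene, stood at 341 and 261 CPM (counts divided by the TMM-scaled library size) in *il11a*OE F hearts, against 335 and 433 CPM in *il11a*OE M hearts. In control hearts it stood at 70.6 and 90.5 CPM in F, against 41.1 CPM in both M libraries. The log2 fold of F over M, fitted as 1 value for both genotypes, was 0.31 (SE 0.27, adjusted p = 0.728, edgeR). Within *il11a*OE it was -0.35 (SE 0.22, adjusted p = 0.848, edgeR) and within controls 0.97 (SE 0.22, adjusted p = 0.21, edgeR). These folds differed by -1.32 (SE 0.31, adjusted p = 0.534, edgeR). The libraries held 73275884 to 130058630 counts on genes, and the share from the mitochondrial genome was 18.7% to 30.6%. Of the variance of log CPM over all tested genes, 43.4% lay between genotypes, 12.4% between letters, 9.31% in the interaction and 34.9% between the libraries of a group. The last share has 4 degrees of freedom, at 8.73% each, and each of the other shares has 1. Principal component 1 separated the genotypes and carried 43.9% of the variance. Component 2 carried 12.99%, and all 4 F libraries had positive values on it, from 14.6 to 89.5, whereas all 4 M libraries had negative values, from -28.6 to -76.8.

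Reads of *vtg1* and *pgr* went with the letters. *vtg1*, a vitellogenin, had 258 and 156 reads in *il11a*OE F hearts, against 6 and 8 in *il11a*OE M hearts. Control F hearts had 360 and 4700 reads of it, and both control M hearts had 0. Each F library was thus above each M library, but control F replicate 2 stood far above the rest. *pgr*, which encodes the progesterone receptor, was named by smallest p from the list of sex steroid receptors and enzymes. Of the 23 tested genes of that list 11 were higher and 12 lower in F. *pgr* had 42 and 30 reads in *il11a*OE F hearts and 28 and 32 in control F hearts, and no read in any M library. Set against 3 counts per library, the level in F was 8.28-fold higher. Both mates of a pair were counted, so 3 counts stand for fewer than 3 pairs, and this value is no lower bound. Neither gene passed the test over all genes (adjusted p = 0.245 for *vtg1* and 0.194 for *pgr*, edgeR). All 9 genes of the list of vitellogenins and female liver genes, which also holds *esr1* and *nots*, had a higher fitted level in F in both genotypes, and none passed the test. For 2 of the 9 (22.2%, against 2.42% over all genes) every F library was above every M library. The gap was narrow for *vtg5*, with 0.224 CPM in control F replicate 1, against 0.221 CPM in *il11a*OE M replicate 2. In controls the higher level of several vitellogenins rested on control F replicate 2, since *vtg2*, *vtg4*, *vtg6* and *vtg7* were lower in control F replicate 1 than in control M replicate 2. *vtg4*, for example, had 4.41 and 11.7 CPM in control F hearts, against 4.05 and 9.20 CPM in control M hearts. The summed CPM of the list was 9.74 and 8.67 in *il11a*OE F hearts, against 4.65 and 4.60 in *il11a*OE M hearts. In control hearts it was 14.5 and 86.2 in F, against 9.23 and 15.5 in M, so that the letters overlapped (exact permutation p = 0.111, two-sided). With unscaled library sizes the control sums were 13.2 and 74.6 CPM in F, against 7.10 and 12.4 CPM in M. The letters then overlapped across genotypes only (exact permutation p = 0.0556, two-sided, the smallest possible). The median log2 fold of the list was 2.02, against 0.028 over all 20915 genes tested. *vtg1* and *vtg5* each overlap an unnamed gene on the other strand, and since strand was not used in counting, reads of such pairs cannot be told apart.

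The lists of liver plasma proteins, of ovary and of testis did not follow the letters in the same way. The sums of pancreas and gut genes and of skeletal muscle genes, which were lower in F within each genotype, are given below. The summed CPM of 57 liver plasma proteins was 2300 and 2476 in *il11a*OE F hearts, against 4725 and 2730 in *il11a*OE M hearts, and 955 and 715 in control F hearts, against 1038 and 855 in control M hearts. Of the ovary and oocyte list 10 of 30 genes were tested, 5 of them higher and 5 lower in F. The testis and sperm list had 11 of 20 tested genes higher in F. The gonadal genes named by smallest p were *ca15b*, with 0 to 2 reads in F and 0 to 28 in M libraries, and *gsdf*, a factor of gonadal somatic cells, at 0.572 and 0.665 CPM in *il11a*OE F against 1.299 and 0.787 CPM in *il11a*OE M hearts, with adjusted p = 0.358 and 0.329 (edgeR). *gsdf* was more abundant in control hearts, at 14.8 and 10.1 CPM in F against 22.2 and 15.95 CPM in M. *greb1*, an oestrogen-responsive gene in mammals that was picked after its values were seen, stood at 3.92 and 10.6 CPM against 2.52 and 1.06 CPM in *il11a*OE, and at 7.34 and 7.82 CPM against 0.655 and 2.34 CPM in controls (F before M, adjusted p = 0.197, edgeR).

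With genotype as a covariate, 1 gene of 20915 differed between F and M hearts at an adjusted p under 0.05 (edgeR quasi-likelihood test, 0.00478%). At an unadjusted p under 0.05, 1121 genes were higher in F (5.36%) and 1141 lower (5.46%). The number of genes called depended on the tool. DESeq2 called 284 of 18076 genes higher (1.57%) and 323 lower (1.79%), and limma-voom called 3. Leaving out control M replicate 2 gave 31 genes with edgeR, 7 higher and 24 lower. By the levels alone, every F library was above every M library for 506 genes (2.42%) and below for 321 (1.53%). The p-values measure only the spread between these pools, with 2 a group.

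The gene that passed was *slc7a7*, on chromosome 7 (GRCz11, 19562045 to 19587542, plus strand). It encodes the light chain of a transporter of cationic amino acids and is known in zebrafish from microglia and their macrophage precursors. Its level was 28.9 and 29.2 CPM in *il11a*OE F hearts, against 7.59 and 8.24 CPM in *il11a*OE M hearts. In control hearts it was 8.37 and 7.95 CPM in F, against 2.59 and 2.46 CPM in M. Within each genotype the F libraries lay well above the M libraries, by 3.68-fold in *il11a*OE and 3.23-fold in controls, and the spread between replicates was small (SD 0.221 in *il11a*OE F and 0.0943 in control M, n = 2 each). Across genotypes the groups overlapped, because *il11a*OE M and control F hearts had much the same level. *slc7a7* rose in F with a log2 fold of 1.79 (SE 0.13, adjusted p = 0.00416, edgeR), and the fold did not differ detectably between genotypes (difference 0.19, SE 0.26, adjusted p = 0.974). It kept an adjusted p under 0.05 in 17 of 18 alternatives, and lost it when genotype was left out of the model (0.95).

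*f13a1a.1* had a far wider gap. The gene lies on chromosome 24 (GRCz11, 2495197 to 2515623, plus strand) and encodes an A subunit of coagulation factor XIII, the transglutaminase that cross-links fibrin, which in mammals is made by platelets and by resident macrophages. It was at 6276 and 3967 CPM in *il11a*OE F hearts, against 0.563 and 0.369 CPM in *il11a*OE M hearts. Control F hearts had 323 and 428 CPM, against 0.625 and 0.226 CPM in control M hearts. The F libraries were thus 10988-fold above the M libraries in *il11a*OE and 882-fold above them in controls, with no overlap. Within each genotype it rose in F, with a log2 fold of 13.40 (SE 0.66, adjusted p = 0.000837, edgeR) in *il11a*OE and 9.79 (SE 0.59, adjusted p = 0.00412, edgeR) in controls, and both calls held in all 16 alternatives. In the additive model, in which 1 fold serves both genotypes, the log2 fold was 11.74 (SE 1.06) with an adjusted p of 0.0655 (edgeR), and 7 of 18 alternatives brought it under 0.05. With the 4 groups as separate terms the average fold of both genotypes had an adjusted p of 0.000116 (edgeR). The difference between the folds of the genotypes was 3.61 (SE 0.64, adjusted p = 0.311, edgeR).

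A neighbouring copy showed the same levels on a smaller scale. *F13A1* (chromosome 24, 2470061 to 2480898), chosen after its values were seen, had 68.1 and 53.7 CPM in *il11a*OE F hearts, against 0 and 0.0246 CPM in *il11a*OE M hearts. In controls it had 5.55 and 5.23 CPM in F, against 0.268 and 0 CPM in M. No F library overlapped an M library, and the adjusted p was 0.175 (edgeR). Reads that map to both copies were left out of the counts, so the levels of these related genes are uncertain.

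*marco*, a scavenger receptor of macrophages, had the next smallest p. It was at 212 and 173 CPM in *il11a*OE F hearts, against 79.5 and 51.2 CPM in *il11a*OE M hearts, and at 56.0 and 67.9 CPM in control F hearts, against 14.6 and 21.4 CPM in control M hearts. Its log2 fold was 1.67 (SE 0.19, adjusted p = 0.0655, edgeR), and 5 of 18 alternatives gave an adjusted p under 0.05. The macrophage list as a whole was spread more evenly. Of its 30 genes 22 were higher and 8 lower in F, with a median log2 fold of 0.33, which was 0.05 in *il11a*OE and 0.49 in controls, and *slc7a7* was its 1 called member. The list's summed CPM was 2149 and 2189 in *il11a*OE F hearts, against 2183 and 1895 in *il11a*OE M hearts, and 581 and 520 in control F hearts, against 402 and 464 in control M hearts. The letters thus overlapped in this sum in *il11a*OE hearts. The part of macrophage number in the *f13a1a.1* values was not tested. *f13a1a.1* and *F13A1* were not on this list.

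**Figure D1:**
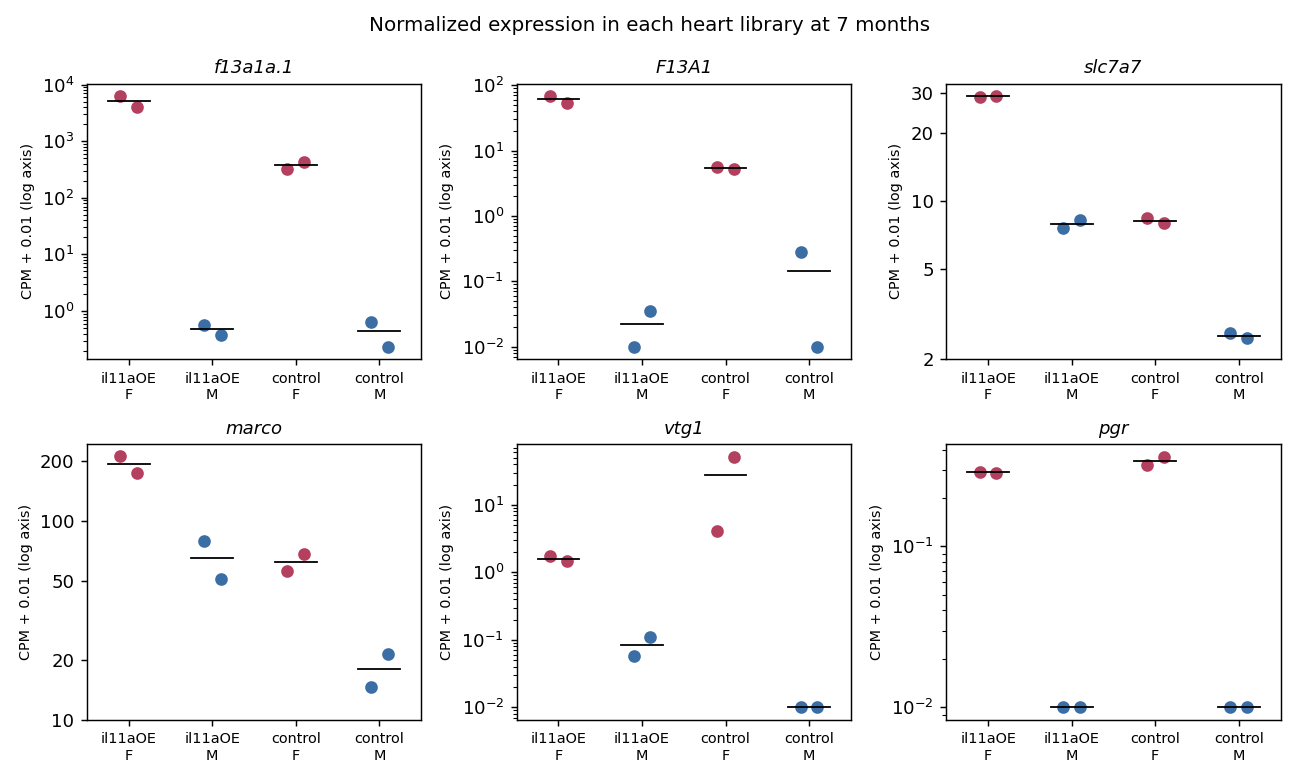
Level of 6 genes in each library, as CPM plus 0.01 on a log axis, with *il11a*OE and control hearts side by side and F left of M. Points are libraries and lines are means of 2. *f13a1a.1* and *F13A1* show a gap of orders of magnitude between the letters in both genotypes, *slc7a7* and *marco* a smaller one on top of a genotype difference, and *pgr* has 0 reads in every M library.

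The other genes with the smallest p and a higher level in F all came from 1 chromosome. They were *ttll1*, a tubulin glutamylase, *CPNE8*, a copine, *trim24*, a transcriptional cofactor, *ckap4*, a membrane protein of the endoplasmic reticulum, and si:ch73-389k6.1. All 5 lie on chromosome 4 beyond 70 Mb. *trim24*, for example, stood at 12.3 and 11.7 CPM in *il11a*OE F hearts, against 6.35 and 6.22 CPM in *il11a*OE M hearts, and at 17.7 and 15.7 CPM in control F hearts, against 7.92 and 7.14 CPM in control M hearts. Their log2 folds ranged between 1.04 for *trim24* and 2.23 for si:ch73-389k6.1, and each had an adjusted p of 0.07 (edgeR). F and M libraries did not overlap in 4 of the 5, and *ckap4* was the exception. *CPNE8* is a name carried by 2 gene identifiers.

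The 8 genes with the smallest p and a lower level in F came from 7 chromosomes. si:dkey-146n1.4, on the first part of chromosome 4, had 0.253 and 0.277 CPM in *il11a*OE F hearts, against 1.56 and 2.24 CPM in *il11a*OE M hearts. Control F hearts had 0.224 and 0.197 CPM of it, against 2.17 and 2.06 CPM in control M hearts. Its log2 fold was -3.08 (SE 0.36, adjusted p = 0.0655, edgeR), and the letters did not overlap. *pygl*, a glycogen phosphorylase, had 5.31 and 5.14 CPM against 11.45 and 20.2 CPM in *il11a*OE, and 11.4 and 10.7 CPM against 28.3 and 23.7 CPM in controls, F before M, with a log2 fold of -1.42 and an adjusted p of 0.07 (edgeR). *acta1a*, a skeletal muscle alpha-actin, had 159 and 157 CPM in *il11a*OE F hearts, against 346 and 673 CPM in *il11a*OE M hearts, and 341 and 340 CPM in control F hearts, against 981 and 741 CPM in control M hearts. Its adjusted p was also 0.07 (edgeR). The list of 39 skeletal muscle genes had a summed CPM of 3934 and 2830 against 4350 and 5570 in *il11a*OE, F before M. In controls the sum was 7884 and 8872 against 11199 and 10054. Of its 32 tested genes 22 were lower and 10 higher in F, and 13 were lower in both genotypes. *acta1b*, its member with the smallest p, alone had 1801 and 2599 CPM in control F, against 4156 and 3449 CPM in control M hearts. The part of skeletal muscle in the *acta1a* value was not tested. The others were si:dkey-85k15.6, *ctss1*, a cathepsin, *map3k15*, a kinase, *lcp1*, an actin-bundling protein of leukocytes, and zgc:162509. si:dkey-85k15.6 and zgc:162509 both lie near 14 Mb of chromosome 16. These 8 genes had adjusted p from 0.0655 to 0.0962 (edgeR), and 2 to 4 of the 17 or 18 alternatives brought each under 0.05.

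**Figure D2:**
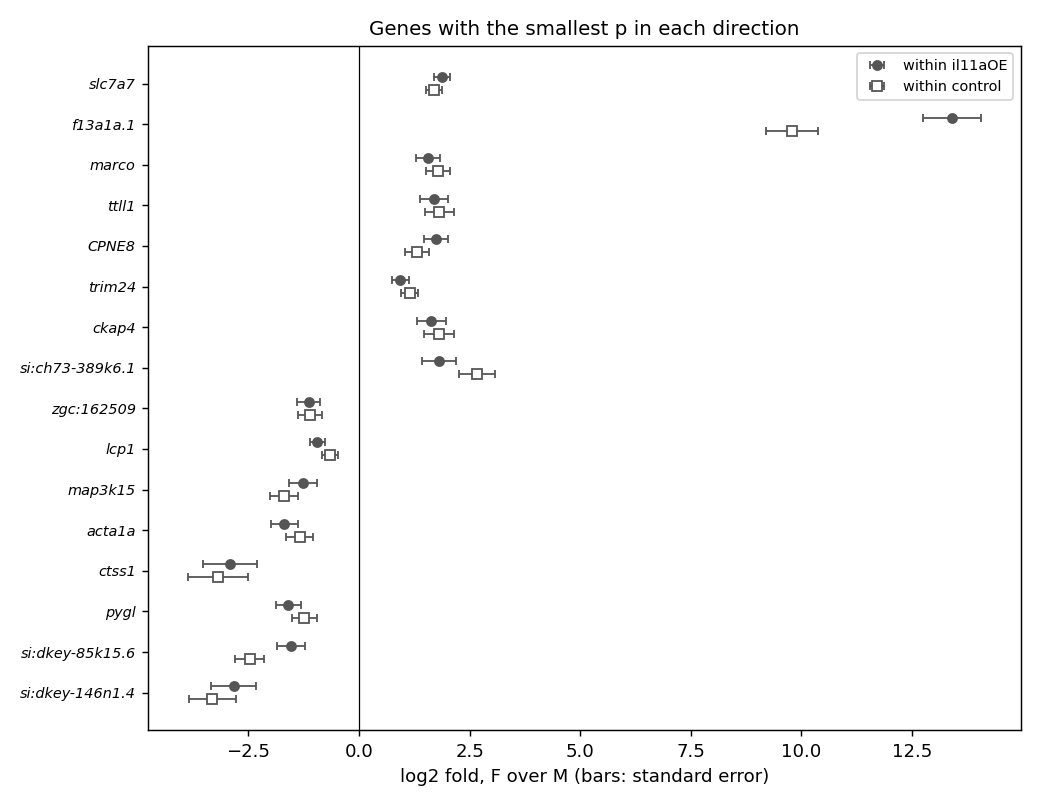
Log2 fold of F over M for the 8 genes with the smallest p in each direction, with filled circles for *il11a*OE and open squares for control hearts, bars giving the standard error of the fit. Each gene has the same sign in both genotypes, and *f13a1a.1* lies apart at 13.40 and 9.79.

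The genes of the long arm of chromosome 4 were higher in F as a group. Its border was set at 30 Mb after the values of the chromosome had been seen, so the values are given as a description. Of 1552 genes annotated there, 584 had enough counts to be tested, and 500 of these had a higher fitted level in F. For 95 of them (16.3%) every F library was above every M library, against 2.42% over all genes, and for 0 it was below. At an unadjusted p under 0.05, 128 were higher and 0 lower, and no gene passed the edgeR threshold over all 8 libraries. DESeq2 called 59 of them higher and 0 lower. The median log2 fold was 1.07 with quartiles of 0.43 and 1.76, and the median was 0.83 in *il11a*OE and 1.22 in controls. The 569 tested genes of the same chromosome before 30 Mb had a median of 0.017. On the other 24 chromosomes the medians lay between -0.02 and 0.095, and the share of genes with every F library above every M library lay between 0.839% and 2.98%.

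**Figure D3:**
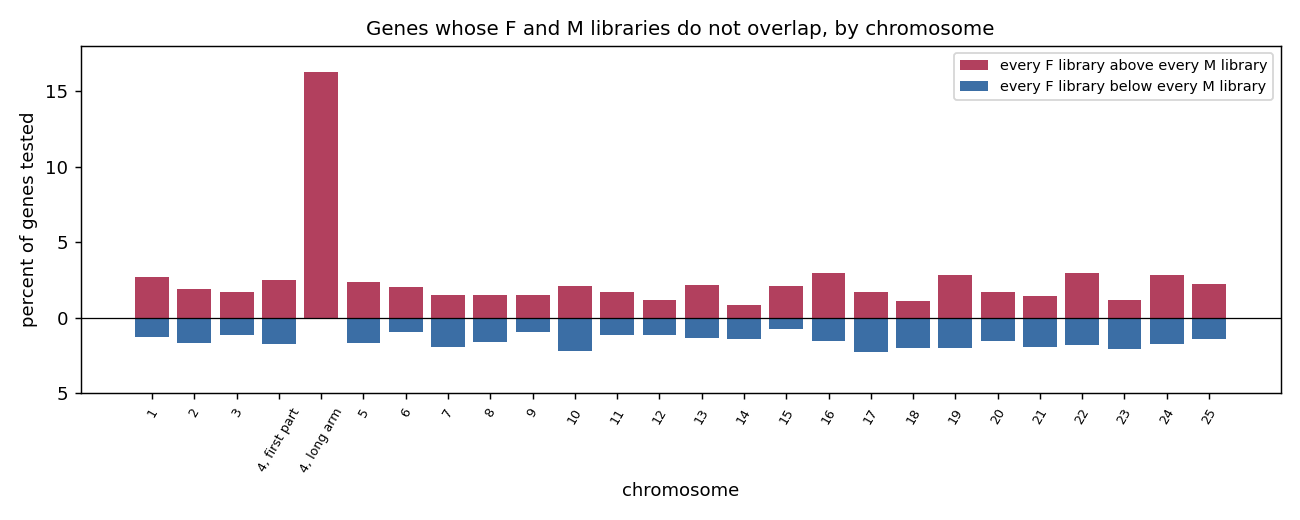
Share of tested genes whose 4 F and 4 M libraries do not overlap, in percent per chromosome, with F above M upwards and F below M downwards, and chromosome 4 divided at 30 Mb. The long arm of chromosome 4 reaches 16.3% upwards, against at most 2.98% on any other chromosome, and has no gene downwards.

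The difference ran along the whole arm. In bins of 5 Mb from 30 Mb on, the median log2 fold was 0.80 to 1.47, and the highest value was in the last bin, which starts at 75 Mb. In the bin before the border, from 25 to 30 Mb, it was -0.0032. In 267 other bins with at least 20 genes the median lay between -0.26 and 0.29. The change of level at the border was seen in both genotypes, with medians of 0.66 in *il11a*OE and 0.71 in controls in the bin from 30 Mb.

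Summed over all 1552 genes, with no filter on low counts, the arm gave 1040 and 1056 CPM in *il11a*OE F hearts, against 537 and 629 CPM in *il11a*OE M hearts. In control hearts it gave 1006 and 1003 CPM in F, against 500 and 466 CPM in M. All F libraries were near the same level and above all M libraries, whatever the genotype, with a ratio of 1.80 in *il11a*OE and 2.08 in controls. The exact permutation p, with letters exchanged within genotypes, was 0.0556, two-sided, which is the smallest that 36 arrangements allow. Since the border of the arm was set after these values had been seen, this p is a description and not a test. A count above 0 was found for 720 and 680 genes of the arm in *il11a*OE F hearts, against 621 and 575 in *il11a*OE M hearts, and for 649 and 604 genes in control F hearts, against 493 and 463 in control M hearts.

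**Figure D4:**
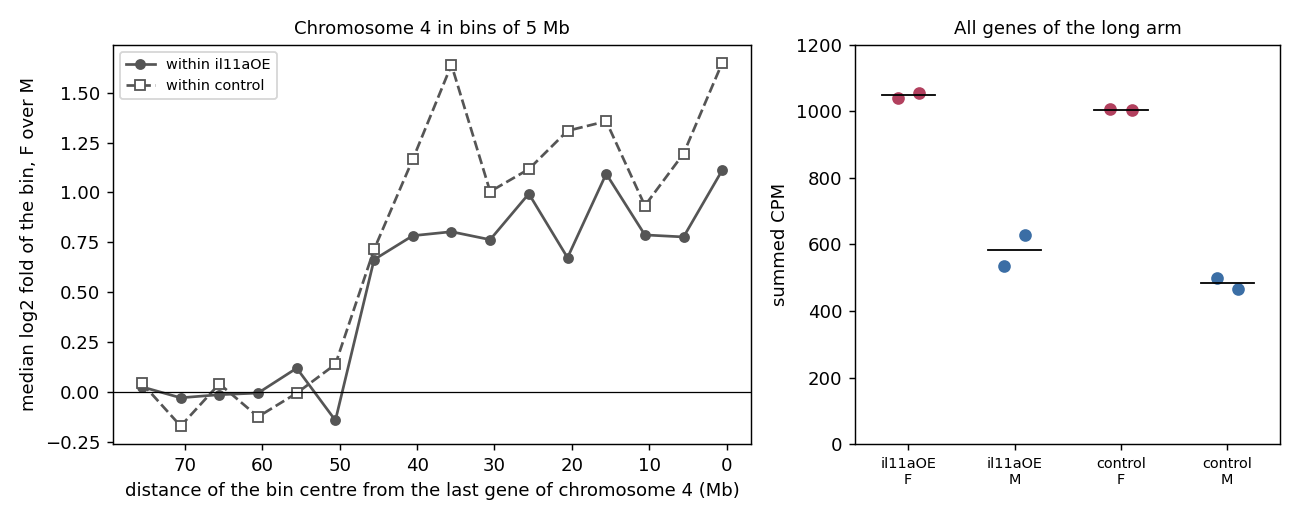
Left, median log2 fold of F over M in bins of 5 Mb along chromosome 4, plotted by distance of the bin centre from the last annotated gene in Mb, for *il11a*OE (filled circles) and control hearts (open squares). Right, summed CPM of all genes of the long arm in each library (points) with the means of 2 (lines), F left of M. The medians of the first part lie between -0.17 and 0.14, those of the long arm between 0.66 and 1.65, and the 4 F libraries sum to 1003 to 1056 CPM, against 466 to 629 CPM in the 4 M libraries.

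Most genes of the arm were weakly expressed, and 469 of the 584 tested averaged under 1 CPM. A gene that passes a filter on low counts only through its F libraries has to be higher there, and of the 584 genes 158 had at least 10 counts in every library. Their median log2 fold was 0.91. The 21 genes of the arm that averaged 5 CPM or more had a median of 1.09. For 9 of them (42.9%) every F library was above every M library, against 1.81% of all other genes at that level. Several genes with known roles were among the better expressed ones. *rab21*, a GTPase of endosomes, had 25.2 and 26.5 CPM in *il11a*OE F hearts, against 10.97 and 13.1 CPM in *il11a*OE M hearts, and 27.7 and 26.9 CPM in control F hearts, against 17.1 and 12.3 CPM in control M hearts (adjusted p = 0.0743, edgeR). *psmb10*, a subunit of the immunoproteasome, had 23.7 and 17.7 CPM against 9.73 and 9.74 CPM in *il11a*OE, and 23.8 and 28.5 CPM against 11.04 and 7.57 CPM in controls, F before M (adjusted p = 0.07, edgeR). *ptprb*, a phosphatase of the endothelium, had a log2 fold of 1.09 (adjusted p = 0.123, edgeR) and overlaps *ptprr* on the other strand.

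Members of the arm were not all alike. The neighbours si:ch211-76m11.5 and si:ch211-76m11.11, near 71 Mb, had log2 folds of 0.03 and 0.14, and the sign of both turned in some alternatives. *pacsin2*, close to the end of the chromosome, had 73.6 and 61.0 CPM in *il11a*OE F hearts, against 27.6 and 76.1 CPM in *il11a*OE M hearts, so that the letters overlapped. The 85 tested genes of the arm named as zinc fingers (znf) had a median of 1.28, with 77 higher in F. Over the whole arm the median was 1.07, with 500 of 584 higher. Every F library was above every M library for 10 of the 85 (11.8%), against 16.3% over the arm. The 166 znf genes elsewhere had a median of 0.017. The 11 tested genes of the *ms4a17a* cluster, which encode proteins that span the membrane several times, had a median of 1.81, with 10 higher. For 0 of the 11 was every F library above every M library. In both groups, genes that passed the filter only through their F libraries were not set apart. *ms4a17a.11* stood at 61.0 and 66.7 CPM in *il11a*OE F hearts, against 22.0 and 28.0 CPM in *il11a*OE M hearts, and at 16.6 and 20.9 CPM in control F hearts, against 3.66 and 2.29 CPM in control M hearts. Its level was higher in *il11a*OE than in control hearts with either letter. The repeats of this arm bear on the counts, since 144 of its tested genes overlap another gene and near-identical copies lose the reads they share. Reads that mapped to several places made up 9.62% and 11.4% of *il11a*OE F, 9.11% and 10.4% of *il11a*OE M, 9.47% and 9.14% of control F and 8.41% and 9.12% of control M libraries, and their part in the difference was not tested. Of the genes of this arm, *rab21*, *ptprb*, *pacsin2*, both si:ch211-76m11 genes and the zinc finger and *ms4a17a* groups were chosen after their values were seen.

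Within *il11a*OE hearts 4 genes differed between F and M (0.0191% of those tested), all higher in F. Beside *f13a1a.1* and *slc7a7* (log2 fold 1.88, adjusted p = 0.0353, edgeR), these were *igsf21a*, an adhesion protein of the immunoglobulin family, and *col18a1b*, a basement membrane collagen. *igsf21a* was at 13.1 and 14.1 CPM in *il11a*OE F hearts, against 1.74 and 1.38 CPM in *il11a*OE M hearts, and at 24.5 and 20.04 CPM in control F, against 19.6 and 34.6 CPM in control M hearts. *col18a1b* was at 7.85 and 6.30 CPM in *il11a*OE F hearts, against 1.25 and 1.23 CPM in *il11a*OE M hearts, and at 29.1 and 31.2 CPM in control F, against 32.1 and 23.5 CPM in control M hearts. The *il11a*OE M hearts thus stood lowest for both genes, and the control hearts overlapped. Both rose within *il11a*OE, by 3.12 and 2.51 on the log2 scale (adjusted p = 0.0353 each, edgeR), a call that 10 and 11 of 16 alternatives kept. The genes that came next in the other direction, *sult2st1*, *slc4a2a* and *camk2n2a*, had adjusted p from 0.162 to 0.269 (edgeR).

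Within control hearts 9 genes differed (0.043%), 7 higher and 2 lower in F. *egr3*, an immediate early transcription factor, was at 17.3 and 12.4 CPM in control F hearts, against 2.53 and 1.86 CPM in control M hearts, and at 3.60 and 3.36 CPM in *il11a*OE F, against 2.32 and 2.24 CPM in *il11a*OE M hearts. *ppargc1a*, a coactivator that drives mitochondrial biogenesis, was at 5.32 and 6.68 CPM in control F hearts, against 31.4 and 33.7 CPM in control M hearts. In *il11a*OE hearts *ppargc1a* was low with either letter, at 2.61 and 2.26 CPM in F and 2.85 and 2.31 CPM in M. *itga5*, a subunit of the fibronectin receptor, was at 131 and 115 CPM in control F hearts, against 348 and 362 CPM in control M hearts, and at 74.5 and 78.6 CPM in *il11a*OE F, against 84.3 and 75.2 CPM in *il11a*OE M hearts. *egr3* rose by 2.76 and *ppargc1a* and *itga5* fell by 2.44 and 1.53 on the log2 scale in control F hearts (adjusted p = 0.0462 each, edgeR). The other genes that rose were *f13a1a.1*, *slc7a7*, *ms4a17a.11*, *ms4a17a.10*, si:ch211-217k17.11 and *mhc2d4b*, a class II histocompatibility gene of the chromosome 4 arm with 0 reads in both control M hearts. Apart from *f13a1a.1*, each of these calls was lost in 8 or more of its 15 or 16 alternatives. *hspa4a*, an Hsp70-family chaperone, followed with 72.2 and 71.6 CPM in control F, against 176 and 231 CPM in control M hearts (adjusted p = 0.0551, edgeR).

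No gene passed the test of a difference between the F against M effects of the genotypes (0% of those tested, edgeR), with a smallest adjusted p of 0.188. At an unadjusted p under 0.05, 1264 genes differed, 639 positive and 625 negative, DESeq2 called 183 and limma-voom called 0. The genes with the smallest p and a larger F over M fold in *il11a*OE were *igsf21a*, zgc:101744, *col18a1b*, *chd5* and *bmp10l*, a BMP of the heart. *bmp10l* had 8.01 and 20.4 CPM in *il11a*OE F hearts, against 0.657 and 0.369 CPM in *il11a*OE M hearts, and 177 and 211 CPM in control F hearts, against 331 and 268 CPM in control M hearts. Those with a larger fold in controls were si:ch211-217k17.11, CT573342.2, *mhc2d4b*, zgc:194275 and *ctnnb1*, which encodes beta-catenin. *ctnnb1* had 272 and 238 CPM in *il11a*OE F, against 330 and 494 CPM in *il11a*OE M hearts, and 1173 and 842 CPM in control F, against 358 and 299 CPM in control M hearts. The order of the letters was thus opposite in the genotypes, a difference of -2.31 on the log2 scale with an adjusted p of 0.248 (edgeR). *chd5* overlaps *rpl22* on the same strand.

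The 2 genotypes share no library, and each was set beside the other. The choice of genes by p was not fully independent, since the fit pooled the spread of all 8 libraries. Of 1162 genes higher in F at an unadjusted p under 0.05 in controls, 775 (66.7%) were higher in *il11a*OE too, and of 1086 lower ones 776 (71.5%) were lower. Over all tested genes, whatever their p, 10879 of 20915 were higher in *il11a*OE F hearts. On the long arm of chromosome 4 the higher direction was shared by 103 of 110 (93.6%), where 467 of all 584 tested genes were higher in *il11a*OE F hearts. Without the arm it was shared by 672 of 1052 (63.9%). Across all genes, which are not independent replicates, the log2 folds of the genotypes had a Pearson r of 0.094 and a Spearman rho of 0.17, and across the genes of the arm 0.092 and 0.17.

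Gene lists were described by their counts, since beside *slc7a7* no member of them passed the edgeR test over all 8 libraries. Leukocyte lists differed from each other. Of 22 neutrophil genes 19 were lower in F, 12 of them at an unadjusted p under 0.05 (54.5%, against 5.46% over all genes), with a median log2 fold of -0.81, which was -1.02 in *il11a*OE and -0.44 in controls. *mpx*, the myeloperoxidase of neutrophils, chosen after its values were seen, had 14.2 and 20.4 CPM in *il11a*OE F hearts, against 167 and 133 CPM in *il11a*OE M hearts. In controls it had 0.582 and 1.99 CPM in F, against 30.4 and 0.536 CPM in M, so that control M replicate 1 alone stood out. *scpp8*, the member with the smallest p, had 1.38 and 2.03 CPM in *il11a*OE F, against 21.3 and 13.7 CPM in *il11a*OE M hearts (adjusted p = 0.184, edgeR). Among 36 lymphoid genes 21 were lower, with a median of -0.22, and *il16* had the smallest p (adjusted p = 0.16, edgeR). Of 20 erythroid genes 16 were higher in F, with a median of 0.84. *hbaa1*, an adult alpha-globin, showed how these varied between pools, with 1421 and 3305 CPM in *il11a*OE F, 638 and 1581 CPM in *il11a*OE M, 1077 and 2233 CPM in control F and 668 and 1291 CPM in control M hearts. The erythroid sum of replicate 2 was above that of replicate 1 in all 4 groups, and the letters overlapped.

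Matrix genes had higher medians in F, with the larger values in *il11a*OE hearts. Of 51 collagen chains 37 were higher, with a median log2 fold of 0.55 (1.02 in *il11a*OE and 0.11 in controls). Their summed CPM was 10482 and 11755 in *il11a*OE F hearts, against 5208 and 5182 in *il11a*OE M hearts, and 2070 and 1373 in control F hearts, against 1458 and 1739 in control M hearts. *col1a1a*, a chain of type I collagen chosen after its values were seen, had 1825 and 2137 CPM in *il11a*OE F, against 852 and 916 CPM in *il11a*OE M hearts, a log2 fold of 1.16 (SE 0.28, adjusted p = 0.426, edgeR). It overlaps another gene on the other strand. *col6a2*, the collagen with the smallest p, had 322 and 387 CPM against 141 and 137 CPM in *il11a*OE, and 142 and 124 CPM against 99.1 and 109 CPM in controls, F before M. Neither the difference of its folds between the genotypes (1.00, SE 0.25, adjusted p = 0.575, edgeR) nor that of *col1a1a* (1.09, SE 0.40, adjusted p = 0.756, edgeR) passed the test. Of 55 epicardial and fibroblast genes 46 were higher in F, with a median of 0.38 (0.63 in *il11a*OE and 0.13 in controls), and *mfap2*, a microfibril protein, had the smallest p (adjusted p = 0.213, edgeR).

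Most immediate early genes had a higher fitted level in F over all libraries, and 28 of 49 were higher in both genotypes. Of 49 genes 42 were higher in the fit of all 8 libraries, 13 of them at an unadjusted p under 0.05 (26.5%, against 5.36% over all genes) and 0 lower, and 6 had no overlap between the letters (12.2%, against 2.42%). The median log2 fold was 0.46, with 0.19 in *il11a*OE and 0.82 in controls. The summed CPM of the list was 5509 and 3789 in *il11a*OE F hearts, against 4545 and 4778 in *il11a*OE M hearts, where the letters overlapped. In control hearts it was 3262 and 4990 in F, against 2700 and 2003 in M. *ier2b* was at 28.0 and 15.97 CPM in *il11a*OE F hearts, against 11.3 and 9.57 CPM in *il11a*OE M hearts, and at 17.6 and 18.003 CPM in control F hearts, against 8.28 and 5.56 CPM in control M hearts (adjusted p = 0.121, edgeR). *egr1*, chosen after its values were seen, was at 162 and 66.4 CPM against 54.7 and 58.8 CPM in *il11a*OE, and at 139 and 162 CPM against 40.1 and 33.3 CPM in controls, F before M. Of 45 circadian clock genes 25 were higher, with a median of 0.03, and *per1b* had the smallest p (adjusted p = 0.293, edgeR). Interferon response genes were higher in 35 of 47, with medians of -0.05 in *il11a*OE and 0.54 in controls.

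Genes of contraction, respiration, protein turnover and proliferation were mostly lower in F, by small amounts. Of 94 tested nuclear genes of the respiratory chain 91 were lower, 44 of them at an unadjusted p under 0.05 (46.8%, against 5.46% over all genes). The median log2 fold was -0.33, with like medians in *il11a*OE (-0.29) and controls (-0.41). Their summed CPM overlapped in *il11a*OE, at 17820 and 12691 in F against 15792 and 20963 in M. In controls it was 31626 and 34555 in F, against 44476 and 43482 in M (exact permutation p = 0.111, two-sided). *ndufb1*, a subunit of complex I, was at 31.0 and 28.9 CPM in *il11a*OE F hearts, against 38.0 and 51.7 CPM in *il11a*OE M hearts, and at 63.2 and 68.4 CPM in control F hearts, against 92.9 and 95.1 CPM in control M hearts (adjusted p = 0.195, edgeR). The 13 coding genes of the mitochondrial genome were all lower, with a median of -0.24, and *MT-ND1* had the smallest p (adjusted p = 0.394, edgeR). The difference of their summed CPM, F minus M, was -32294 with scaled library sizes (exact permutation p = 0.222, two-sided) and -5274 with unscaled ones (0.778). With either scaling *il11a*OE F replicate 1 was above both *il11a*OE M libraries. With scaled sizes the sums were 195822 and 136900 CPM in *il11a*OE F, against 182812 and 185653 CPM in *il11a*OE M hearts. Of 58 sarcomere genes 43 were lower, with a median of -0.32, and *acta1a* led them. Of 53 glycolysis genes 36 were lower, with a median of -0.17 and *pygl* in front. Of 81 ribosomal protein genes 79 were lower in the fit of all 8 libraries, with a median of -0.42 in *il11a*OE and -0.011 in controls. Only 42 were lower in both genotypes, and 38 were higher in F within controls. One library stood apart here, since the list summed to 43541 and 37690 CPM in *il11a*OE F hearts, against 44803 and 61554 CPM in *il11a*OE M hearts, and its part in the count was not tested. With unscaled library sizes the ribosomal sum was 43052 and 36478 CPM in control F hearts, against 35028 and 35237 CPM in control M hearts. Over all 8 libraries the unscaled difference had an exact permutation p of 0.667, two-sided. Of 102 cell cycle genes 90 were lower, with a median of -0.41. *cenpe*, a kinetochore motor, had 3.18 and 3.97 CPM in *il11a*OE F, against 8.46 and 7.11 CPM in *il11a*OE M hearts (adjusted p = 0.13, edgeR). The cell cycle sum was 649 and 891 CPM against 959 and 781 CPM in *il11a*OE, F before M. In controls it was 647 and 684 CPM against 666 and 814 CPM. The letters thus overlapped (exact permutation p = 0.278, two-sided). With unscaled library sizes the difference, F minus M, was -9.32 CPM (exact permutation p = 0.944).

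Proteasome and heat shock genes had sums that, with TMM-scaled library sizes, did not overlap between the letters. Of 46 proteasome genes 42 were lower in F, and for 13 (28.3%, against 1.53% over all genes) every F library was below every M library. The 4 higher ones include *psmb10*, the gene of the chromosome 4 arm. The summed CPM of the proteasome was 1768 and 1700 in *il11a*OE F hearts, against 1872 and 2037 in *il11a*OE M hearts, and 1532 and 1739 in control F hearts, against 2071 and 2255 in control M hearts. Heat shock and folding genes summed to 13307 and 10553 CPM in *il11a*OE F hearts, against 14514 and 15863 CPM in *il11a*OE M hearts, and to 11625 and 13013 CPM in control F hearts, against 17527 and 18817 CPM in control M hearts. For both sums the exact permutation p was 0.0556, two-sided, the smallest possible. With unscaled library sizes the letters overlapped in both sums. The proteasome sum was then 2043 and 2291 CPM in *il11a*OE F, against 2229 and 2260 CPM in *il11a*OE M hearts, with an exact permutation p of 0.167, and the heat shock sum overlapped across genotypes only, with a p of 0.0556. *dnajb2*, a co-chaperone, had the smallest p among the heat shock genes (adjusted p = 0.181, edgeR). The sums of the sarcomere, skeletal muscle, and pancreas and gut lists also had an exact permutation p of 0.0556, two-sided. They had this p with scaled and with unscaled library sizes. In these lists every F sum was below every M sum within each genotype, and the letters overlapped across genotypes only.

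Endothelial and endocardial genes had a median log2 fold of -0.05 over 46 genes, with *stab1* first by p (adjusted p = 0.178, edgeR), smooth muscle genes -0.20 with *mylka* (0.269), and calcium handling genes -0.07 with *ASPH* (0.239). Cardiac stress genes stood at 0.05, genes of fatty acid oxidation and the TCA cycle at -0.19 with *acat1* (0.346), and the glucocorticoid list at 0.05 with *zbtb16a* (0.123). The sex steroid receptors and enzymes had a median of -0.003 over 23 genes, of which *pgr* had the smallest p. The IL11 signalling list had a median of 0.24, with -0.20 in *il11a*OE and 0.53 in controls, and *il6r* had the smallest p (adjusted p = 0.217, edgeR). Genes of liver plasma proteins stood at -0.27. Pancreas and gut genes stood at 0.32 by their median of 15 genes, but their sum was lower in F in each genotype, at 29.7 and 21.8 CPM against 131 and 64.7 CPM in *il11a*OE and at 15.7 and 12.7 CPM against 51.7 and 19.3 CPM in controls, F before M. *cpa1*, a pancreatic protease, had 19.99 and 10.8 CPM in *il11a*OE F hearts, against 122.8 and 57.7 CPM in *il11a*OE M hearts (adjusted p = 0.347, edgeR). The name *cpa1* is carried by 2 gene identifiers.

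**Figure D5:**
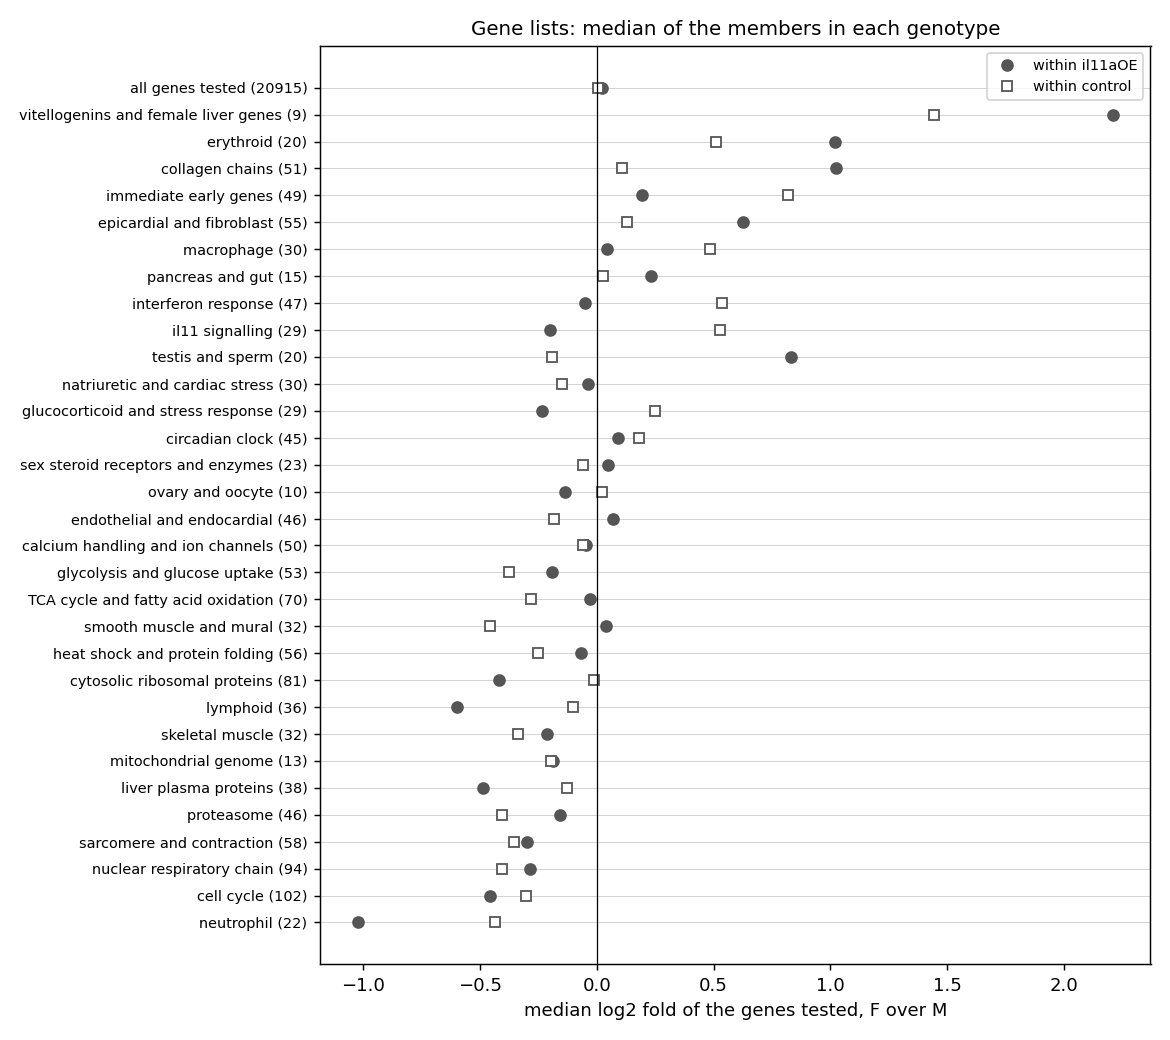
Median log2 fold of F over M for the tested genes of each list (number in brackets), with filled circles for *il11a*OE and open squares for control hearts, and all tested genes at the top. Vitellogenins, erythroid and collagen genes lie to the right and neutrophil genes to the left in both genotypes. Collagen chains stand at 1.02 in *il11a*OE and 0.11 in controls, and immediate early genes at 0.19 and 0.82.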

How the data were processed

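The authors sequenced poly(A) RNA of pooled hearts, used HISAT2 for alignment to GRCz11, and ran featureCounts 2.0.0 with Ensembl annotation, ignoring strand and dropping reads assigned to several places or genes. The authors deposited these as unnormalised gene counts. At 7 months each mate was counted, so counts exceed molecules.

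From these counts, filterByExpr kept 20915 of 32520 genes, and F was tested against M by edgeR quasi-likelihood (R 4.3.3, edgeR 4.0.16, TMM, robust dispersions) with genotype as a covariate and Benjamini-Hochberg adjustment at 0.05. Contrasts within genotypes and their difference came from a fit of 4 groups. List sums were compared by an exact permutation test of 36 arrangements. The steps were tested on simulated data. Alternatives were DESeq2 1.42.0, its size factors, limma-voom (limma 3.58.1), both filters, non-robust dispersions, halved counts, other models and leaving out each library. Those of the chromosome 4 arm were added after seeing the data.

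The members and all 31 lists were chosen with earlier results of these data known. Genes named are *il11a*, the called genes, the 8 higher and 8 lower ones of smallest p over all libraries, 5 each way for the difference, 3 each way within a genotype, and of each list the called member or that with the smallest p, with others marked as chosen later. Symbols were matched to 29399 identifiers. Replicate libraries differed by far more than counting noise (chi-square per degree of freedom 54.1 to 165), so none was taken for a duplicate. Promoter motifs were not analysed here.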

Additional observations from a re-analysis of the deposited data

Results flagged for a closer look

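Among groups of 4 libraries, 14 of 168 had a library whose gap to the next was past Dixon's limit for 4 values, which chance exceeds in about 1 of 20 groups. Vitellogenins of control F replicate 2 make up 6 of them. Its CPM was 51.5 for *vtg1*, 3.504 for *vtg2*, 6.50 for *vtg5*, 4.53 for *vtg6* and 2.89 for *vtg7*, and the vitellogenin list summed to 86.2 CPM, each far above the other 3 F libraries. Control M replicate 2 stood apart among M libraries with 1.98 CPM of *vtg6*, 0.706 CPM of *vtg7* and 9.15 CPM of *zbtb16a*. *il11a*OE F replicate 1 stood apart for *ier2b* with 28.0 CPM and for *ca15b* with 0.0133 CPM, where the other F libraries had 0. *il11a*OE F replicate 2 had the highest cell cycle sum of the F libraries, 891 CPM. *il11a*OE M replicate 2 was highest among M libraries for *rps23* with 447 CPM and for the ribosomal protein sum with 61554 CPM.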

How the results depend on the processing

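The count of genes called over all 8 libraries, 1 with edgeR, was 607 with DESeq2, 3 with limma-voom, 36 without a filter, 14 with at least 10 counts in every library, 2 without robust dispersions, 2 with halved counts, 3 with 4 groups as terms, 0 with the letter alone, and 1 to 31 with 1 library left out. Within *il11a*OE, 4 became 295 with DESeq2, 2 with limma-voom, 14 without a filter and 2 to 13 with 1 library left out. Within controls, 9 became 628, 4, 62 and 1 to 8 under the same settings, 1 without robust dispersions and 2 with halved counts. For the difference, 0 became 183 with DESeq2, 15 without a filter and 0 to 5 with 1 library left out. The causes were not tested.

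With the replicate number as a block the calls were 1 over all libraries, 1 within *il11a*OE, 1 within controls and 0 for the difference. Over all tested genes the deviations of replicate 1 correlated by -0.104 to 0.0471 between groups. Such a correlation cannot show whether the numbers pair libraries for some of the genes, and no label says how the numbers were given.

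With unscaled shares of counts, differences of summed CPM, F minus M, turned to 31.4 for sex steroid genes, 2.70 for testis, 137 for endothelial, 710 for cardiac stress, 170 for glucocorticoid genes and 309 for chromosome 4 before 30 Mb. *il11a* turned to a log2 fold of -0.16 with the letter alone, and si:ch211-76m11.5 to -0.0056 with limma-voom. With 1 library left out si:ch211-76m11.5 ranged between -0.080 and 0.12, turned without control F replicate 1 (-0.070) or control M replicate 2 (-0.080), and si:ch211-76m11.11 between -0.065 and 0.28, turned without control M replicate 2. The median of the chromosome 4 arm stayed between 0.91 and 1.23. With 2 libraries a group and low counts for vitellogenins and most genes of the arm, single genes are poorly resolved.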

Other observations

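The 6 libraries of 7 days after tamoxifen carry no letter and belong in no comparison of F and M. Their counts are of read pairs. Levels are given for these libraries alone and are not set against those of 7 months. *f13a1a.1* had 1346, 1578 and 2848 CPM in *il11a*OE and 375, 348 and 243 CPM in control libraries, so that none of the 6 was near 0. *F13A1* had 35.7, 26.9 and 43.8 CPM in *il11a*OE and 9.24, 5.31 and 5.58 CPM in controls. *slc7a7* had 7.32, 9.05 and 9.71 CPM in *il11a*OE and 2.67, 1.99 and 3.27 CPM in controls, and *marco* 47.9, 44.5 and 65.6 CPM and 14.9, 9.19 and 20.2 CPM. *vtg1* had 0.149, 0.0162 and 0 CPM in *il11a*OE and 0.176, 0.0474 and 0.42 CPM in controls. The long arm of chromosome 4 summed to 1793, 1604 and 2000 CPM in *il11a*OE and to 1135, 1362 and 1306 CPM in controls. Unplaced scaffolds, whose place in the genome is not given, held 238 tested genes at 7 months, of which 20 had every F library above every M library and 5 below, a share of 8.40% and 2.101%, against 2.42% and 1.53% over all genes.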
